A study of Mus musculus with 2 samples.

Results

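The liver carboxylesterase genes of mouse chromosome 8 were examined as 10 named members: Ces1c, Ces1d, Ces1e, Ces1f and Ces1g in the Ces1 cluster, and Ces2a, Ces2c, Ces2e, Ces3a and Ces3b in the Ces2/Ces3 cluster. They were chosen by name, and they are 10 of 20 chromosome 8 genes of the Ces family in the gene table. Their spans overlapped 12 bins of 50 kb, and the clusters, taken from the first to the last such bin, held 6 bins (chr8:93050001-93350000) and 8 bins (chr8:104700001-105100000), or 14 of 54521 bins. Foxa2 HiChIP, in which DNA ends that lie close together in the nucleus are ligated and then recovered with an antiserum against the forkhead factor Foxa2, was measured in liver of wildtype mice. One library (n = 1) came from mice that received the propylene glycol and Tween 80 vehicle, and 1 library (n = 1) from mice that received GW4064, which activates FXR, the nuclear receptor for bile acids, by gavage 4 h before collection. The sources used here give no strain, age or sex and do not say whether animals were pooled.

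Depth was 22686004 contacts for vehicle and 29003442 for GW4064. Pairs that join different chromosomes were 22.3% of the contacts in vehicle and 18.3% in GW4064. With 1 library per group there is no replicate error and no test of the treatment: every 95% interval covers counting error only, and effects of the library and of the treatment cannot be told apart. The tissue is bulk liver, so a smaller share of one cell type and fewer contacts per cell cannot be told apart either. Contacts do not measure RNA, so cell type markers are given as loci only. In vehicle the loci of hepatocyte markers had a median of 119 same-bin contacts per bin. Kupffer cell loci had 118, endothelial 111, stellate 106.5, cholangiocyte 107 and neuronal 112, beside 111 over all bins. In GW4064 hepatocyte loci had 128, and the other lists, in that order, had 152.5, 132, 140, 138 and 182, beside 152 over all bins. These are raw counts, not scaled for depth.

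Carboxylesterases are serine hydrolases that cleave esters, amides and thioesters. In hepatocytes most of them sit in the lumen of the endoplasmic reticulum, where they hydrolyse drugs, pesticides and stored or newly made lipids, while some are secreted. In rodents the families have expanded by tandem duplication, which leaves several related genes side by side, and Foxa2 is one of the forkhead factors that bind liver enhancers.

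Tandem copies of this kind share sequence, and sequence shared between copies bears on how reads can be placed, which was not tested here. RefSeq promoter sequences (GRCm38.p6, the mm10 assembly) matched 7 of 10 members and 8 other Ces genes. All 7 of those genes from Ces1a to Ces5a lie on the minus strand, and all 8 from Ces2a to Ces4a lie on the plus strand. The longest run shared by any 2 of the Ces1 promoters joined Ces1b, a neighbour that is no member, and Ces1c, whose best local alignment over the 250 bases before the start spanned 160 bases at 85.6% identity. Those promoters are shown because they hold the longest shared run, 5′ to 3′, with the 58 bases they have in common in capitals (Ces1b chr8:93080018-93080267 and Ces1c chr8:93131284-93131533, both on the minus strand).
Ces1b: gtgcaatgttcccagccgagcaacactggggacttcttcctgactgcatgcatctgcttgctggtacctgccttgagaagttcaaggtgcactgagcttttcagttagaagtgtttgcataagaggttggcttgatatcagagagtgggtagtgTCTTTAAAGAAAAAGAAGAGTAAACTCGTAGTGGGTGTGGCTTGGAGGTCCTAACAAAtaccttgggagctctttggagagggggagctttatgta
Ces1c: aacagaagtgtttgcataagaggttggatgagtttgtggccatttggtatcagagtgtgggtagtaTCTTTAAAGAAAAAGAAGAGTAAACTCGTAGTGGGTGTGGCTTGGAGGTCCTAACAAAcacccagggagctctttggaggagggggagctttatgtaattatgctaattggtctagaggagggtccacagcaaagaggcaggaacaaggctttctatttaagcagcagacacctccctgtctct
The shared run begins 96 bases before the start of Ces1b and 184 bases before the start of Ces1c, and it holds the letters GTAAAC. In the Ces2 group the longest run in common was 17 bases, between Ces2a and Ces2e, whose best alignment spanned 110 bases at 69.1% identity. These are shown for comparison, again with the shared run in capitals (Ces2a chr8:104733753-104734002 and Ces2e chr8:104926010-104926259, both on the plus strand).
Ces2a: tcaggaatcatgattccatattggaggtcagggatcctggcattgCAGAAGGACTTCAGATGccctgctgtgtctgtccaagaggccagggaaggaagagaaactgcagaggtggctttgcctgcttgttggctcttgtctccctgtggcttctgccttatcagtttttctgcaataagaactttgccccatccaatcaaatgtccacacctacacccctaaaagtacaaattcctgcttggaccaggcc
Ces2e: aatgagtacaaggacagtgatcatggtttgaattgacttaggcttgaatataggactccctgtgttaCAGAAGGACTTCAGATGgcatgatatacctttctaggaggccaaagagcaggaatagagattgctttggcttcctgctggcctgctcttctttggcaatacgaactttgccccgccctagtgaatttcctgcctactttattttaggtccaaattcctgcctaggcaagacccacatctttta
The longest alignment in the Ces2 group, of Ces2a with Ces2c, spanned 221 bases at 68.8% identity. Over the 75 pairs that are not both Ces1 or both Ces2 promoters the longest alignment was 39 bases.

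Forkhead and FXR motifs were searched on both strands in the 300 bases from 250 before to 50 after each start. The forkhead motif TGTTTAC was in 0 of 15 Ces promoters, against 3.65% of 32851 promoters, and TATTTAC was in 0 of 15, against 3.04%. The consensus inverted repeat of the FXR and RXR dimer, with a spacer of 1 base, was in 0 of 15, against 0.00913% of all promoters. The shorter forkhead core GTTTAC, which lies within TGTTTAC and was added after the longer motifs had been searched, was in Ces1b, Ces1c and Ces1e, and in 7.89% of all promoters. A match is a description of letters in this window and not a site.

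Both clusters had local contacts above the genome's median bin in the vehicle library, and a lower share of the local contacts in the GW4064 library than in the vehicle library. Local contacts are those of a bin with other bins of the chromosome up to 1 Mb away, and ratios between libraries were scaled to equal totals of that class over chromosomes 1 to 19 and X. Per bin, the median number of local contacts was 275.5 in vehicle and 286 in GW4064 for the Ces1 cluster, 231 and 262.5 for the Ces2/Ces3 cluster, and 188 and 265 over all bins. In the vehicle library both clusters thus lay above the median bin, and in the GW4064 library the Ces2/Ces3 median was level with it.

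The Ces1 cluster held 1139 local contacts in vehicle and 1319 in GW4064, a log2 ratio of -0.30 (95% interval -0.41 to -0.18). The Ces2/Ces3 cluster held 1216 and 1358, a log2 ratio of -0.35 (-0.46 to -0.24). The clusters differed from each other by 0.05 on the log2 scale, with an interval of -0.11 to 0.21 that includes 0. Scaled to all contacts of each library instead, the log2 ratios of local contacts were -0.14 (-0.26 to -0.03) and -0.20 (-0.31 to -0.08). The median protein-coding locus stood at -0.17, and taken relative to it the clusters stood at -0.13 and -0.18.

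Same-bin contacts, whose ends both fall in 1 bin, gave smaller differences. The Ces1 cluster had 821 in vehicle and 986 in GW4064, a log2 ratio of -0.20 (-0.34 to -0.07), and the Ces2/Ces3 cluster had 844 and 1061, a ratio of -0.14 (-0.27 to -0.01). The median locus stood at -0.16, so both clusters were near it in this class. Contacts beyond 1 Mb and with other chromosomes separated the clusters more, with 2535 and 2930 for Ces1 (-0.02, -0.10 to 0.06) and 2956 and 3117 for Ces2/Ces3 (-0.15, -0.23 to -0.08). The median locus stood at -0.17 in this class, so Ces2/Ces3 was near it and Ces1 was above it.

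Bins with the gene density of either cluster had median ratios below that of all bins, and the clusters lie in different surroundings. Bins of the Ces1 cluster had 13 to 14 protein-coding genes in the 21 bins around them, and bins of the Ces2/Ces3 cluster 28 to 39. Over all bins of the same density, the median log2 ratio of local contacts was -0.10 (2167 bins) for the Ces1 range and -0.28 (1834 bins) for the Ces2/Ces3 range, beside -0.32 and -0.38 for the clusters' own bins and 0.02 for all bins. Loci of hepatocyte markers had a median log2 ratio of -0.39, beside -0.17 for the median protein-coding locus. Of these 8 loci, 6 had an interval below 0, beside 41.0% of protein-coding loci. For 1, Cps1 at 0.24, it lay above 0, beside 5.28%. The medians were -0.07 for Kupffer cell, -0.08 for endothelial, 0.0005 for stellate, -0.14 for cholangiocyte and 0.02 for neuronal loci. Single loci varied within a list, from -0.66 to 0.24 for hepatocyte, -0.79 to 0.05 for Kupffer cell and -0.54 to 0.36 for neuronal loci. The part of gene density and of the kind of locus in the clusters' ratios was not tested.

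**Figure D1:**
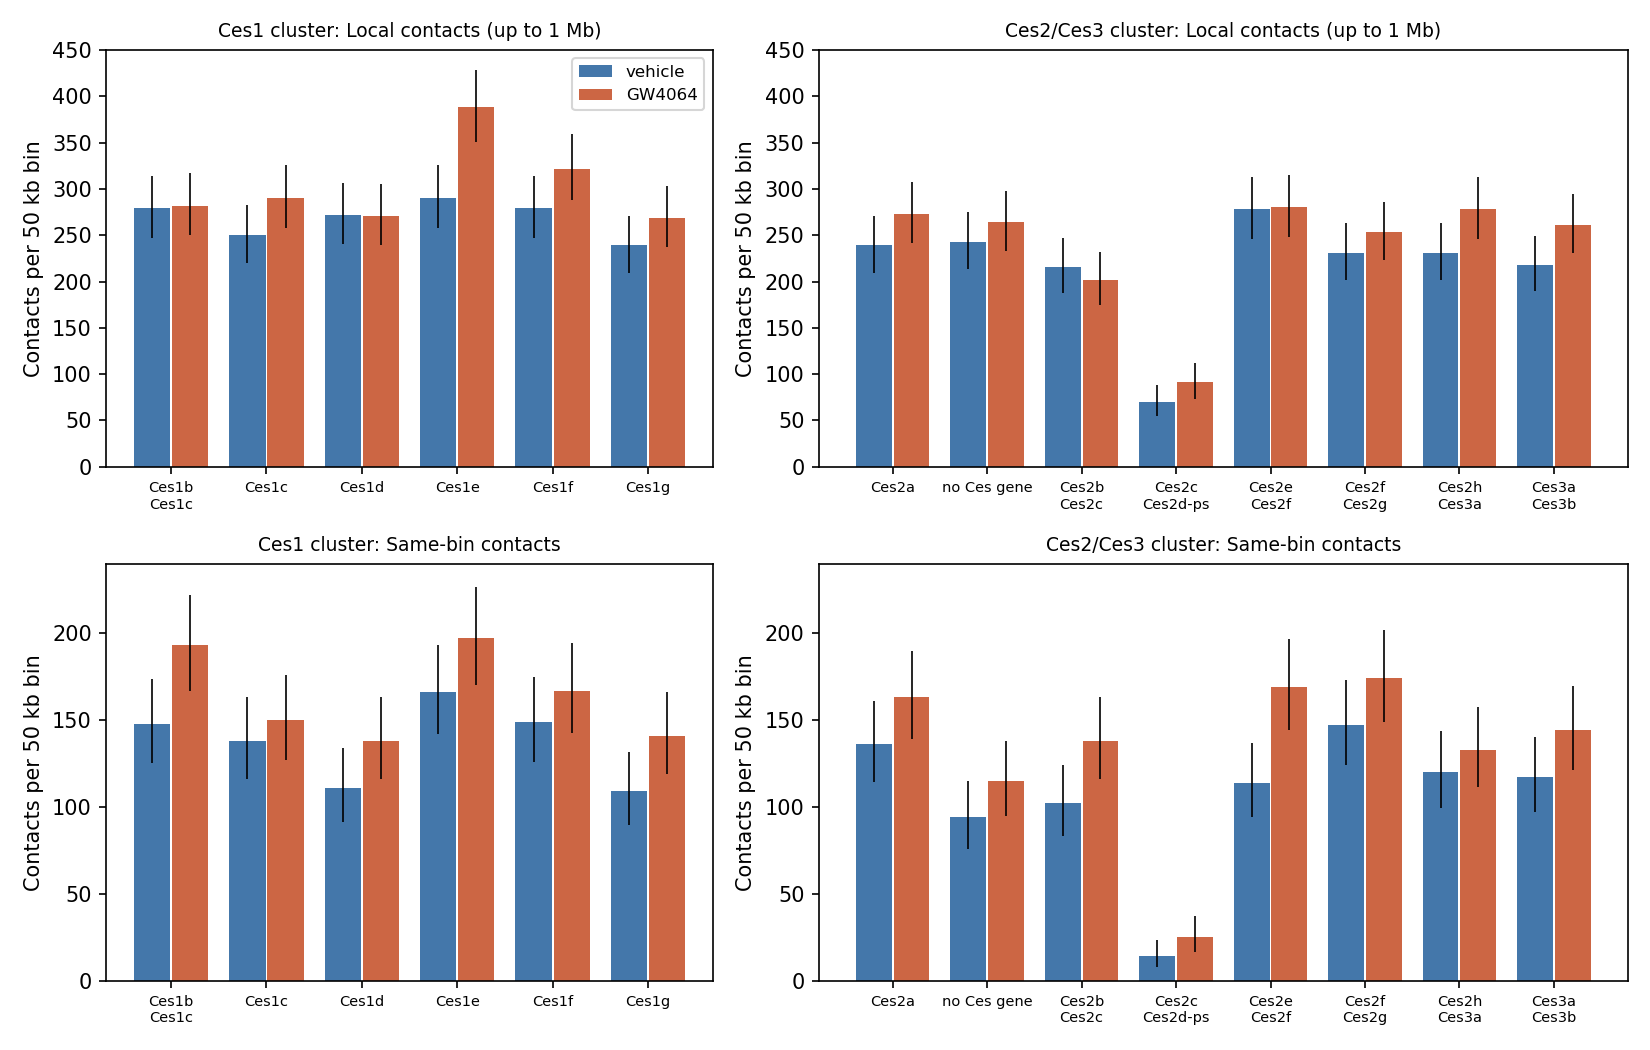
Contacts in each 50 kb bin of the Ces1 cluster (left) and the Ces2/Ces3 cluster (right), as deposited counts without scaling: local contacts up to 1 Mb in the upper panels and same-bin contacts in the lower panels, with exact Poisson 95% intervals as error bars and vehicle and GW4064 bars side by side. The bin of Ces2c and Ces2d-ps stands at 70 and 91 local contacts, below every other bin shown.

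Among the Ces1 members, Ces1c, the esterase that mice secrete into plasma, overlapped 2 bins with 473 local contacts in vehicle and 521 in GW4064, a scaled log2 ratio of -0.37 (-0.55 to -0.19). Ces1d, also known as triacylglycerol hydrolase, had 272 and 271, the lowest ratio of all 10 members at -0.51 (-0.76 to -0.27). Ces1e, or egasyn, which holds beta-glucuronidase in the endoplasmic reticulum, had 290 and 388 and the ratio nearest 0, at -0.09 (-0.31 to 0.14). The bins of Ces1d and Ces1e are neighbours, and their intervals overlap. Ces1f had 279 and 322 (-0.30, -0.54 to -0.07). Ces1g, an esterase tied to hepatic lipid synthesis and secretion, had 239 and 269 (-0.34, -0.60 to -0.08).

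In the Ces2 group, whose products hydrolyse acylglycerols and many drugs, Ces2a had 239 local contacts in vehicle and 273 in GW4064 (log2 ratio -0.32, -0.57 to -0.06). Ces2c had 273 and 274 over its pair of bins (-0.50, -0.75 to -0.26). Ces2e had 278 and 280 (-0.50, -0.74 to -0.25). Ces2c and Ces2e thus had nearly equal raw counts in both libraries although the GW4064 library was 1.28 times as deep. Of the Ces3 pair of liver esterases, Ces3a had 402 and 484 (-0.24, -0.44 to -0.05) and Ces3b had 218 and 261 (-0.25, -0.51 to 0.02). The Ces3 genes share 1 bin, so their values are not separate.

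A bin or locus was called when its ratio was at least 1.5-fold, its interval excluded 1 and its local contacts summed to at least 200. None of the 10 members was called, beside 11.5% of 20509 protein-coding loci called lower and 0.0683% called higher. The interval lay below 0 for 8 members, beside 41.0% of loci, and for 0 members above 0, beside 5.28%. Scaled to the total contacts of the library, the interval lay below 0 for 4 members, Ces1c, Ces1d, Ces2c and Ces2e, and included 0 for the other 6. Neighbouring members share bins or contacts, so these counts are not of independent loci. With a ratio of 0.8 or less in place of 1.5-fold, 5 members were lower, beside 32.0% of loci.

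Of the 14 bins, 13 had enough local contacts. The bin of Ces2b and Ces2c (chr8:104800001-104850000), with 216 and 202 contacts and a log2 ratio of -0.61 (-0.89 to -0.32), was the 1 bin called lower, beside 3.19% of 49090 bins, and 0 were called higher, beside 0.226%. The interval lay below 0 for 10 of 13 bins, beside 14.3% of bins, and above 0 for 0 bins, beside 10.2%. Neighbouring bins share local contacts, so these counts are not of independent bins, and the shares are over bins of every gene density. With a ratio of 0.8 or less, 7 bins were lower, beside 12.0% of bins, and with a fold of 2 there were 0, beside 0.181%.

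The bin that holds the end of Ces2c and the pseudogene Ces2d-ps (chr8:104850001-104900000) stood apart in both libraries. It held 14 same-bin contacts in vehicle and 25 in GW4064, where the medians over all bins were 111 and 152, and 215 and 274 contacts of every kind. It lay at the percentile 1.59 of all bins by total contacts in both libraries. The other bins of the Ces2/Ces3 cluster held 678 to 862 contacts in vehicle and 748 to 940 in GW4064. Contacts inside the Ces2/Ces3 cluster are therefore also given without it, while the flanks, shares by distance and insulation include it. The cause of its low counts was not tested.

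The 10 other Ces genes of chromosome 8 had ratios in a like range, but several share bins with members. Ces1b lies in a bin of Ces1c, Ces2b in a bin of Ces2c and Ces2h in a bin of Ces3a. Ces2f includes the bin of Ces2e, and the locus of Ces2b is the bin called lower above. The values and counts below are therefore not separate from those of the members. Of the 9 with at least 200 local contacts the median log2 ratio was -0.38, with 1 called lower, beside 11.5% of protein-coding loci, and 7 intervals below 0, beside 41.0%. In the Ces1 region, Ces1a, with 255 and 281 local contacts, stood at -0.37 (-0.62 to -0.12), and Ces1b at -0.49 (-0.74 to -0.25). Ces1h stood at -0.20 (-0.46 to 0.05) and Ces5a, an esterase of the epididymis, at -0.27 (-0.49 to -0.04). These 4 neighbours thus lay within the range of the Ces1 members. In the Ces2 region, Ces2b stood at -0.61 (-0.89 to -0.32), Ces2f at -0.45, Ces2g at -0.38 and Ces2h at -0.24. Ces4a, which follows Ces3b, stood at -0.45 (-0.63 to -0.26), and Ces2d-ps had 70 and 91 contacts, under the minimum.

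The other ester hydrolases of liver, 25 genes outside both clusters, gave a wider range. Their median log2 ratio of local contacts was -0.30, with 5 called lower, beside 11.5% of protein-coding loci, and 0 higher. Their intervals lay below 0 for 13, beside 41.0%, and above 0 for 2, beside 5.28%. The lowest was Pnpla3, a lipase of lipid droplets, with 129 local contacts in vehicle and 102 in GW4064 (-0.85, -1.24 to -0.46). The highest was Bche, butyrylcholinesterase, with 664 and 1087 (0.20, 0.06 to 0.34). The Ces members, from -0.51 to -0.09, lay inside this range. Lcat, called lower at -0.60, lies on chromosome 8 within 1 Mb of the Ces2/Ces3 cluster, so its local contacts are not separate from the cluster's. The list also includes Ephx1 and Ephx2, which are epoxide hydrolases.

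**Figure D2:**
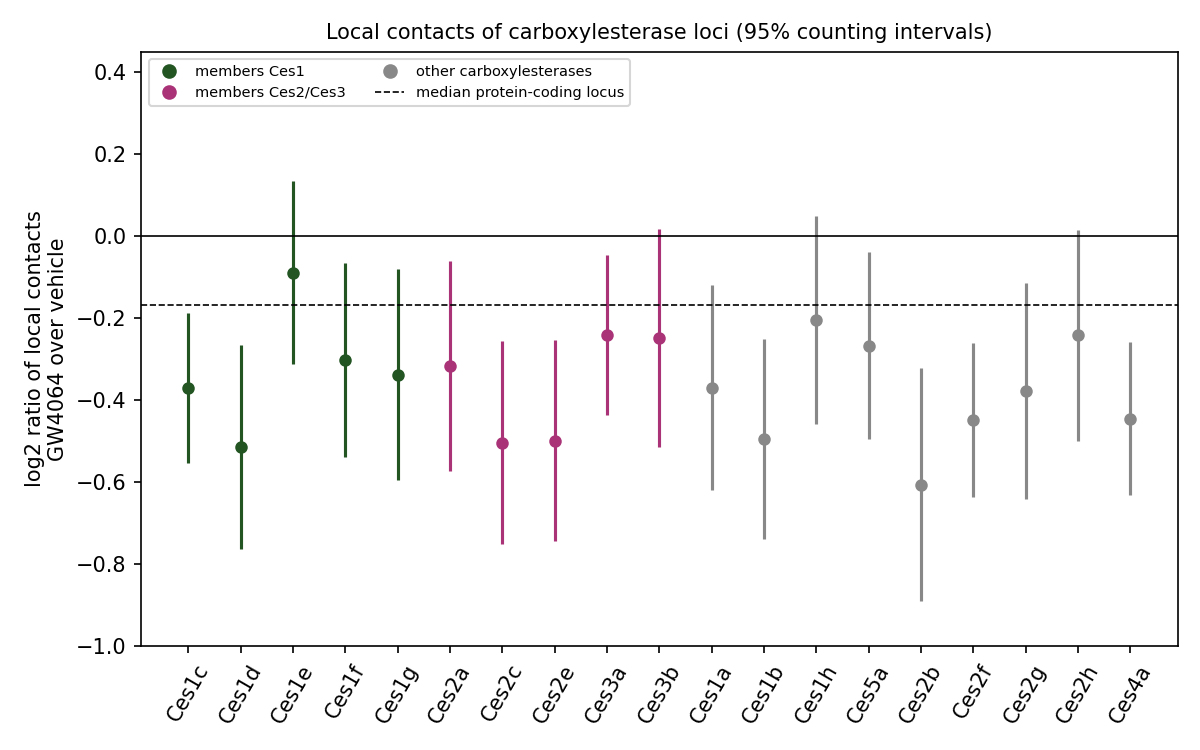
Log2 ratio of local contacts, GW4064 over vehicle, for each Ces locus that held 200 or more local contacts in all, scaled to equal totals of the class, with exact conditional binomial 95% intervals. All 19 points lie below 0, from -0.61 (Ces2b) to -0.09 (Ces1e), and 18 of them lie below the dashed line of the median protein-coding locus at -0.17. Several loci share a bin, so the points are not separate.

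Contacts between the bins of a cluster were above the mean for their distance in the Ces1 cluster in both libraries and in the Ces2/Ces3 cluster in vehicle. Inside the Ces1 cluster, 15 bin pairs held 470 contacts in vehicle and 503 in GW4064. Divided by the mean of chromosome 8 bin pairs at the same distance, this was 1.94 (1.77 to 2.12) and 1.496 (1.37 to 1.63) times the expected number. Of 2497 runs of 6 bins on chromosome 8, 7 were higher in vehicle and 118 in GW4064. Inside the Ces2/Ces3 cluster, 28 pairs held 510 and 544 contacts, 1.36 (1.24 to 1.48) and 1.04 (0.95 to 1.13) times the expected number. Of 2488 runs of 8 bins, 174 were higher in vehicle and 1152 in GW4064. Without the bin of Ces2c and Ces2d-ps the Ces2/Ces3 values were 1.73 and 1.29.

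The direction between libraries depended on how the expected number was formed. From distance alone, the log2 ratio of observed over expected contacts, GW4064 over vehicle, was -0.38 (-0.56 to -0.19) inside Ces1 and -0.39 (-0.56 to -0.21) inside Ces2/Ces3. With the local contacts of both bins in the expected number as well, it was 0.28 (0.10 to 0.47) and 0.37 (0.19 to 0.54), and with all their contacts it was -0.046 (-0.23 to 0.14) and 0.052 (-0.12 to 0.23). Contacts inside a cluster are part of the local and of all contacts of its bins, so they also enter these expected numbers. On the scale corrected for local contacts the Ces1 cluster stood at 0.99 in vehicle and 1.21 in GW4064, and 1409 of 2497 runs were higher than it in vehicle. The order of the clusters turned as well: Ces2/Ces3 stood at 1.12 and 1.44 with local contacts in the expected number, and with all contacts Ces1 stood at 1.86 and 1.81 and Ces2/Ces3 at 1.94 and 2.01. No direction between libraries and no order of the clusters is therefore read from the contacts inside them.

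Single pairs of Ces1 bins differed in contacts and in their value relative to distance. The neighbouring bins of Ces1e and Ces1f shared the most contacts, 61 in vehicle and 93 in GW4064. At 50 kb per bin, contacts of single genes are not resolved. All 15 pairs were above the distance mean in vehicle and 14 in GW4064. The bins of Ces1d and Ces1f, 100 kb apart, shared 37 contacts in vehicle and 26 in GW4064, which was 3.29 (2.32 to 4.53) and 1.61 (1.05 to 2.35) times the distance mean. The bins of Ces1e and Ces1g, also 100 kb apart, shared 21 and 42, or 1.87 (1.16 to 2.85) and 2.60 (1.87 to 3.51) times. The pairs of Ces1e with Ces1f and with Ces1g were the 2 of 15 pairs with the higher value in GW4064, and the intervals of both differences include 0. That count holds for distance alone: with local contacts in the expected number, 12 of 15 pairs were higher in GW4064, and 7 of 15 in vehicle and 12 in GW4064 were above 1.

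In the Ces2/Ces3 cluster the pairs were uneven. In vehicle 20 of 28 pairs were above the distance mean, and in GW4064 16, and with local contacts in the expected number these counts were 18 and 24. The bin of Ces2a and the bin of Ces2e and Ces2f, 200 kb apart, shared 18 and 24 contacts, 3.07 (1.82 to 4.85) and 2.83 (1.81 to 4.21) times the distance mean. The 7 pairs with the bin of Ces2c and Ces2d-ps were all below the mean in both libraries, from 0.17 to 0.66 times in vehicle and from 0.19 to 0.71 times in GW4064. The bin of Ces2e and Ces2f and the bin of Ces3a and Ces3b shared 18 contacts in vehicle and 7 in GW4064, 2.38 (1.41 to 3.76) and 0.62 (0.25 to 1.28) times the mean.

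By distance, the Ces1 excess in vehicle was 1.74 times at 50 kb, 2.42 times at 100 kb and 2.38 times at 150 kb. In GW4064 it was 1.38, 1.98 and 1.54 times. Inside the Ces2/Ces3 cluster the value in vehicle was 1.13 times at 50 kb, 1.57 at 100 kb and 1.88 at 200 kb. In GW4064 it was 0.92, 0.94 and 1.59 times. Without the bin of Ces2c and Ces2d-ps these were 1.44, 2.11 and 2.45 times in vehicle and 1.12, 1.252 and 2.04 times in GW4064. In both clusters the value at 100 kb was above the value at 50 kb in both libraries, with or without that bin, and in GW4064 the intervals of the 2 values for Ces2/Ces3 overlapped.

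**Figure D3:**
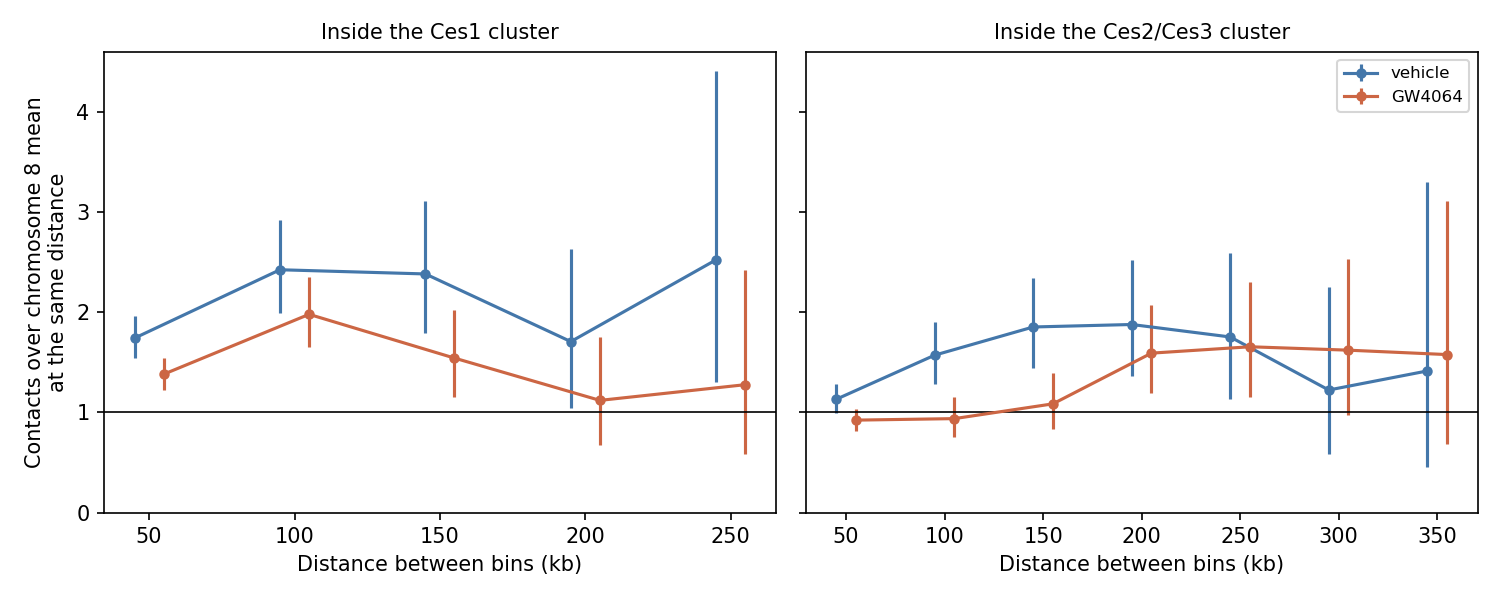
Contacts inside each cluster by the distance between bins, divided by the chromosome 8 mean at that distance, with exact Poisson 95% intervals. The Ces1 points reach 2.42 in vehicle and 1.98 in GW4064 at 100 kb, and the order of the libraries reverses when the expected number also includes the local contacts of the bins.

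The clusters are 11.35 Mb apart, and few contacts joined them. The 48 bin pairs with 1 end in each cluster held 10 contacts in vehicle and 11 in GW4064, each in a different pair. From distance alone 8.18 and 10.2 contacts were expected, so the observed numbers were 1.22 (0.59 to 2.25) and 1.08 (0.54 to 1.92) times the expected ones. Of 2229 rectangles of the same shape and separation on chromosome 8, 664 were higher in vehicle and 774 in GW4064. For the clusters alone an excess or a lack of contacts was not detectable at this depth. With 500 kb added on each side of both clusters the values were 0.65 (0.52 to 0.81) in vehicle and 0.53 (0.42 to 0.66) in GW4064, below 1 in both libraries. The median rectangle of the shape without the added sides was itself below 1, at 0.86 in vehicle and 0.78 in GW4064. Rectangles of the extended shape were not computed, so no lack of contacts is read from these values.

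In the flanks, contacts were above the distance mean next to the clusters and mostly below it further out. Up to 2 Mb on the lower coordinate side, the Ces1 cluster made 341 contacts in vehicle and 404 in GW4064, 0.80 (0.71 to 0.89) and 0.68 (0.61 to 0.75) times the distance mean. On the higher coordinate side it made 479 and 567, 1.12 (1.02 to 1.22) and 0.95 (0.87 to 1.03) times. The Ces1 cluster thus had more contacts on the side of Ces1h and Ces5a than on the side of Slc6a2 and Mmp2 in both libraries.

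The Ces2/Ces3 cluster made 353 and 461 contacts on its lower coordinate side, 0.68 (0.61 to 0.75) and 0.63 (0.58 to 0.70) times the distance mean. That flank holds 18 protein-coding genes in 2 Mb, and the other flank holds 70. On the gene-rich side it made 494 and 482 contacts, 0.95 (0.87 to 1.03) and 0.66 (0.61 to 0.73) times, a log2 ratio between libraries of -0.51 (-0.70 to -0.33). On that side 33 of 40 bins had the lower value in GW4064. The ratio was 0.28 (0.10 to 0.46) with local contacts in the expected number and 0.002 (-0.18 to 0.19) with all contacts, so this difference, like those of the other flanks, depended on the expected number.

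The flanking bins with the most contacts for their distance lay within 150 kb. For the Ces1 cluster they were a bin with no protein-coding gene (chr8:93400001-93450000) with 88 and 125 contacts, the bin of Ces1h with 144 and 185, and the bin of Slc6a2, the noradrenaline transporter gene, and Ces1a with 112 and 130. Over both libraries these were 2.34, 2.10 and 1.54 times the distance mean. For the Ces2/Ces3 cluster the first was the bin of Cbfb, a core-binding factor subunit, and D230025D16Rik with 59 and 70 contacts. It was followed by a bin with no protein-coding gene (chr8:104650001-104700000) with 108 and 156, and the bin of Ces4a with 104 and 143. These were 1.54, 1.53 and 1.43 times the mean. In 2 of these 6 bins the partners are themselves Ces genes alone, and in 1 a Ces gene shares the bin.

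**Figure D4:**
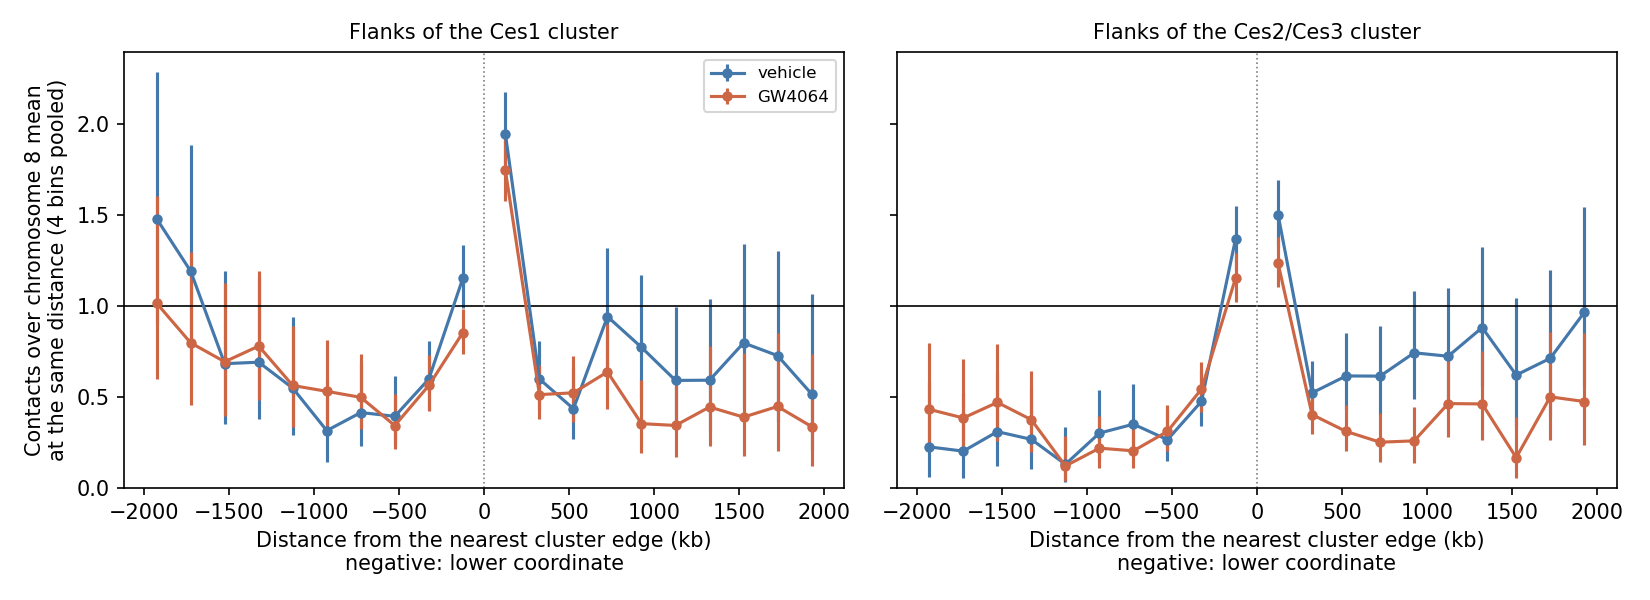
Contacts of the whole cluster with flanking bins up to 2000 kb from its edges, pooled by 4 bins and divided by the chromosome 8 mean at the same distance, with exact Poisson 95% intervals and negative distances on the lower coordinate side. Values are above 1 next to 3 of the 4 edges in both libraries and mostly below 1 beyond 250 kb, and the gap between libraries on the gene-rich side of Ces2/Ces3 closes when all contacts of the bins enter the expected number.

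Both clusters took a large share of their contacts from short distances. Of 4495 vehicle and 5235 GW4064 contacts of the Ces1 bins, 13.0% (12.0 to 14.0) and 12.4% (11.5 to 13.3) joined bins up to 100 kb apart, where the median of chromosome 8 runs of the same length was 6.84% and 7.60%. The Ces1 share exceeded that of 99.96% of runs in vehicle and 99.6% in GW4064. For the Ces2/Ces3 bins the shares at 100 to 200 kb were 4.98% (4.40 to 5.62) and 5.33% (4.75 to 5.95), beside medians of 2.50% and 2.99%.

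From 500 kb to 1 Mb both clusters were on the low side. The Ces1 share was 2.47% in vehicle and 2.77% in GW4064, beside medians of 4.43% and 4.83%. The Ces2/Ces3 share was 2.69% and 2.28%, beside 4.47% and 4.93%. At 1 to 2 Mb the Ces2/Ces3 share was 2.53% and 1.97%, beside 4.22% and 4.39%. Contacts were thus concentrated near the clusters in both libraries, and these shares involve no scaling between libraries.

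An insulation score, the log2 of contacts crossing a position within 500 kb over the chromosome 8 mean, placed each cluster between low points. Inside the Ces1 cluster the score ran from 0.30 to 0.76 in vehicle and from -0.21 to 0.51 in GW4064. The nearest low points were at 92.8 Mb near Mmp2 in vehicle and at 93.0 Mb near Slc6a2 and Ces1a in GW4064 on one side, and at 93.55 Mb and 93.5 Mb, at Ces5a, on the other. On the higher coordinate side the low points of the libraries were thus 1 bin apart. Within 250 kb in place of 500 kb the nearest low points were at 93.0 Mb and 93.5 Mb in both libraries.

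Around the Ces2/Ces3 cluster the low point at 104.1 Mb, near the endothelial cadherin gene Cdh5, was in the same place in both libraries, with 144 crossing contacts and a score of -1.21 in vehicle and 206 and -1.20 in GW4064. With all contacts of the bins in the expected number, the crossing contacts there were 0.53 times the expected number in vehicle and 0.72 in GW4064, a log2 ratio of 0.42 (0.11 to 0.74). Within 250 kb in place of 500 kb a low point was at 104.1 Mb in vehicle and at 104.05 Mb in GW4064. Low points nearer the cluster then also appeared, at 104.55 Mb in vehicle and at 104.6 Mb in GW4064. In vehicle another lay at 105.0 Mb, inside the cluster. The nearest low point on this side thus depended on the window. On the other side, at 105.3 Mb, 249 contacts crossed in vehicle and 189 in GW4064, with scores of -0.42 and -1.32. The log2 ratio there was -0.90 (-1.18 to -0.62), among 14 protein-coding genes within 50 kb, including E2f4, a transcription factor of the cell cycle. With the same correction, the crossing contacts were 0.94 times the expected number in vehicle and 0.78 in GW4064, a log2 ratio of -0.28 with an interval of -0.56 to 0.003. With that correction the interval of the difference at 105.3 Mb includes 0.

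**Figure D5:**
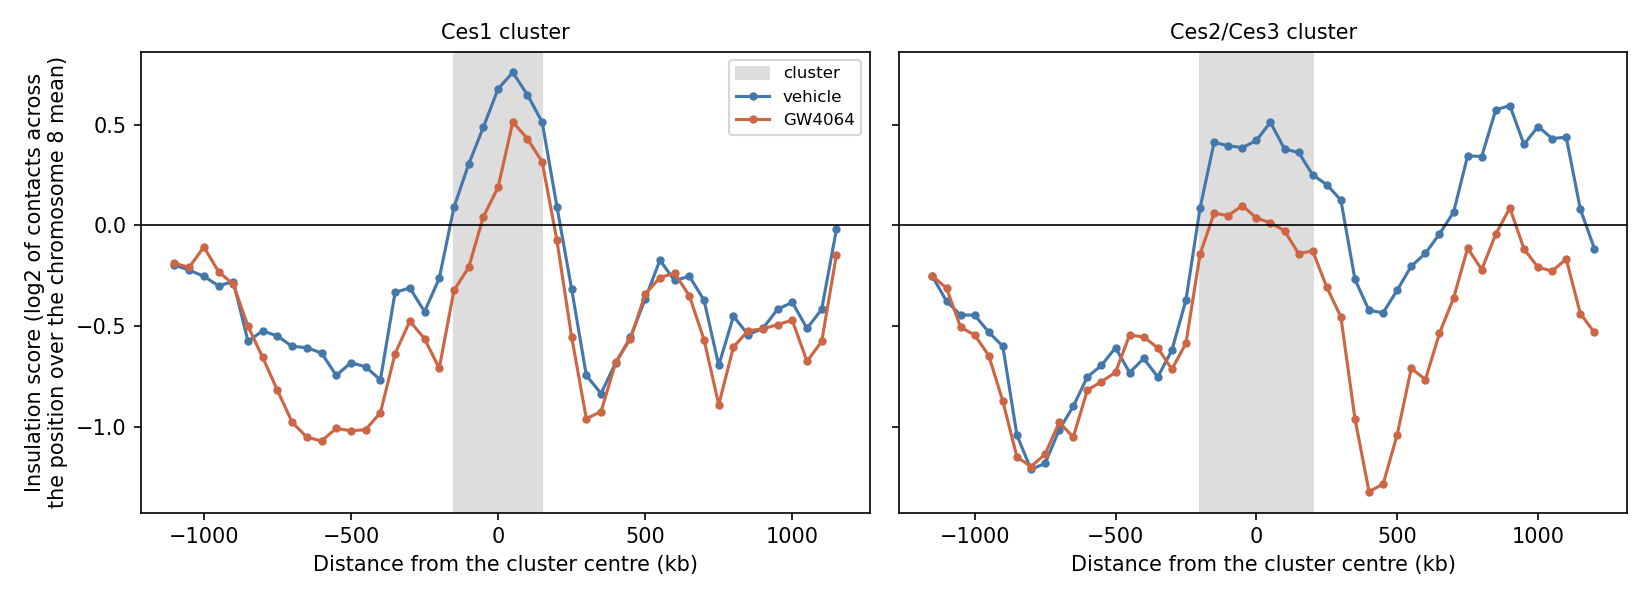
Insulation score by distance from the centre of each cluster (grey), from contacts crossing each bin edge within 500 kb, without correction for the contacts of the bins and with 1 line per library. The Ces1 cluster holds the highest point of its panel in each library. The Ces2/Ces3 cluster reaches 0.51 in vehicle and 0.10 in GW4064, beside 0.60 and 0.09 in its flank at chr8:105800000. The deepest GW4064 point beside the Ces2/Ces3 cluster is -1.32, where vehicle is at -0.42.

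The clusters differed in compartment, the large-scale pattern of contacts summarised as an eigenvector at 250 kb and oriented so that gene-rich bins are positive. The 3 bins of 250 kb that overlap Ces2/Ces3 stood at 1.09, 0.89 and 1.01 in vehicle and at 0.74, 0.57 and 0.87 in GW4064. The 2 bins of Ces1 stood at 0.36 and 0.15 in vehicle and at -0.04 and -0.31 in GW4064. The Ces2/Ces3 cluster was thus on the gene-rich side in both libraries, and the Ces1 cluster crossed 0. By rank on chromosome 8 the Ces1 bins were at the percentiles 66.7 and 62.2 in vehicle and 60.4 and 54.9 in GW4064, and bins above 0 made up 40.8% and 38.4% of the chromosome. No interval was computed for the eigenvector.

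Against other tandem clusters of liver genes, the Ces clusters lay between. The Cyp2c cluster of cytochrome P450 genes on chromosome 19 held 4130 local contacts in vehicle and 5381 in GW4064, a log2 ratio of -0.13 (-0.19 to -0.07). The Ugt2 cluster of glucuronosyltransferase genes on chromosome 5 stood at -0.01 (-0.08 to 0.06), and the Serpina cluster of secreted protease inhibitors on chromosome 12 at -0.45 (-0.53 to -0.36). The Ces1 cluster was lower than Cyp2c by a log2 difference of -0.17 (-0.30 to -0.04) and lower than Ugt2 by -0.29 (-0.42 to -0.15). For Ces2/Ces3 these differences were -0.22 (-0.35 to -0.09) and -0.34 (-0.47 to -0.21). Relative to Serpina, Ces1 stood 0.15 higher (0.004 to 0.29) and Ces2/Ces3 0.10 higher with an interval of -0.05 to 0.24 that includes 0.

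Contacts inside these clusters, relative to distance, were 1.71 times in vehicle and 1.68 in GW4064 for Cyp2c, 2.23 and 2.30 for Ugt2, and 1.30 and 0.90 for Serpina. The Ces1 value in vehicle, 1.94, was between those of Cyp2c and Ugt2, and in GW4064, at 1.496, it was below both. The Ces2/Ces3 value was 1.36 in vehicle and 1.04 in GW4064, or 1.73 and 1.29 without the bin of Ces2c and Ces2d-ps. Cyp2c, Ugt2 and Serpina hold 24, 13 and 17 bins, against 6 and 8 for Ces1 and Ces2/Ces3. The expected number rests on distance alone, so no order of the clusters is read from these values. The median number of protein-coding genes in 21 bins was 12 for Cyp2c, 17 for Ugt2 and 25 for Serpina, and its part in the differences between clusters was not tested.

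By log2 ratios of same-bin, local and further contacts, all over 2 libraries, the genes most like the Ces1 cluster among 3458 candidates were Gldc, a glycine cleavage enzyme, Hacd2, an enzyme of fatty acid elongation, and Ric8b, a chaperone of G protein subunits. Their ratios of local contacts were -0.30, -0.31 and -0.26. For the Ces2/Ces3 cluster they were Slc35f3, Myof, which encodes the membrane protein myoferlin, and Gsta3, a glutathione transferase, at -0.33, -0.37 and -0.39. With only 2 libraries, many loci lie close together on this measure.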

How the data were processed

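Foxa2 HiChIP contacts of mouse liver were taken from 1 vehicle and 1 GW4064 library. Per the submitters' processing notes, HiC-Pro and Bowtie2 2.2.9 were used with mm10. No HiC-Pro version, read filter or treatment of duplicates is given in the sources used here. Each deposited matrix lists pairs of 50 kb bins with their raw count of contacts, not normalized, and the deposited bin tables hold a bin number, which is an index with no unit.

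Genes were placed by RefSeq spans on GRCm38.p6 (mm10), and a locus is every bin that overlaps the gene. Chromosomes 1 to 19 and X were used. Each ratio of 2 counts has an exact conditional binomial 95% interval. Other intervals are, for differences between clusters, exact conditional odds ratios, for observed over expected values, exact Poisson intervals, and for shares, exact Clopper-Pearson intervals. These cover counting error only, and PCR copies are not independent molecules. Local contacts reach 1 Mb. Compartments used 250 kb bins, and insulation low points a depth of at least 0.2.

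The members, gene lists and settings were chosen with earlier results of these data known. Named genes are the 10 members, the other Ces genes, the highest and lowest ester hydrolase, for each cluster the 3 flanking bins highest over expected with at least 20 contacts, and the 3 loci nearest in ratios with at least 1000 local contacts. Genes at the low points of insulation and single bin pairs were chosen after their values were seen. Cyp2c23 was left out of the Cyp2c cluster because it lies over 1 Mb away. Protein sequences were not used here. Methods were tested on simulated data. Software was scipy 1.17.1, numpy 2.4.6 and pandas 2.3.3 under Python 3.11.15, with figures by matplotlib 3.10.9.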

Additional observations from a re-analysis of the deposited data

How the results depend on the processing

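No paired analysis was possible because each group holds 1 library, and for the same reason none was left out. Of 96 alternatives of the results on clusters, flanks and counts of calls, 63 left the value within its interval (for counts, within 1.5 times), 23 moved it and 10 reversed it, and all 20 alternatives for single members left the value within its interval. Scaled to the total contacts of the library, however, 4 members in place of 8 had an interval below 0.

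Local contacts of the Ces1 and Ces2/Ces3 clusters stayed below 0 in every alternative run. The log2 ratios were -0.14 and -0.20 scaled to the total contacts of the library, -0.13 and -0.18 relative to the median protein-coding locus, and -0.13 and -0.21 for all contacts of the bins, and -0.14 for same-bin contacts of Ces2/Ces3. With a ratio of 0.8 or less as the threshold, 7 bins and 5 members were lower, and with a fold of 2, 0 bins.

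With distance and local contacts in the expected number, the values inside Ces1 were 0.99 in vehicle and 1.21 in GW4064 (log2 ratio 0.28), and inside Ces2/Ces3 1.12 and 1.44 (0.37). With distance and all contacts, chosen after seeing the data, Ces1 in GW4064 was 1.81 (log2 ratio -0.046) and Ces2/Ces3 1.94 and 2.01 (0.052). Without the bin of Ces2c and Ces2d-ps, also chosen after seeing the data, Ces2/Ces3 stood at 1.73 and 1.29, and with a neighbour bin on each side at 1.16 in GW4064. Between the clusters, 500 kb on each side gave 0.65 in vehicle and 0.53 in GW4064.

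The log2 ratios of the flanks with local contacts in the expected number were 0.37 and 0.24 for the lower and higher coordinate side of Ces1, and 0.38 and 0.28 for Ces2/Ces3. With all contacts they were 0.18, 0.10, 0.30 and 0.0021. The reversals came in alternatives that put the local contacts or all contacts of the bins in the expected number. They include the Ces1 value within the vehicle library, which went from 1.94 to 0.99. The cause of the reversals was not tested. Depth limits the contacts between the clusters, at 10 and 11, and single bin pairs, some with under 10 contacts.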
